A study of Mus musculus with 2 samples.

Results

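The genes of miR-21, miR-199 and miR-214, a group of microRNAs tied to fibrosis and to mesenchymal cells, were described in embryonic mouse kidney at day 16.5 of gestation. The 5 members, Mir21a, Mir214, Mir199b, Mir199a-2 and Mir199a-1, were taken by symbol from 1973 annotated microRNA genes, and all 5 had a row. MicroRNA sequencing read small RNA under 30 nt from healthy kidney of strain B6NCrl, with tissue of male and female embryos pooled. The series holds 1 group of 2 libraries and no treated, mutant or control group. Replicate 2 pooled 41 embryos, and for replicate 1 the labels name pooled embryos without their number. Both libraries carry 1 donor record, so the SDs below measure the spread between these libraries, which may be partly technical. The exact binomial p-values below set the difference between these libraries against counting error only.

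A microRNA is cut from a hairpin precursor as a pair of short arms, named 5p and 3p, and it silences messenger RNAs that pair with its seed (bases 2 to 8). miR-21 is known as a TGF-beta-induced microRNA that rises in injured kidney and promotes scarring, and miR-199 and miR-214 are known from fibroblasts, pericytes and developing mesenchyme. The miR-199 and miR-214 genes lie on the opposite strand of the dynamin genes, which encode GTPases that pinch off membrane vesicles. Mir199a-2 and Mir214 are made from Dnm3os, a long noncoding RNA that is transcribed antisense to Dnm3.

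The mature arms are shown because they decide which reads can be told apart. They were taken from RefSeq on GRCm38.p6, which lists mature arms for 5 of the 5 members, and the capitals mark the seed.
miR-21a-5p: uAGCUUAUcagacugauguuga
miR-21a-3p: cAACAGCAgucgaugggcuguc
miR-214-3p: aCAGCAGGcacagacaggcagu
miR-214-5p: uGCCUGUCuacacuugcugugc
miR-199a-5p: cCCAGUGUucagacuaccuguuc
miR-199a-3p and miR-199b-3p: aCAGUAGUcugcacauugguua

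Each of these 6 sequences has its own seed. The 3p arm of miR-199 is letter for letter the same in Mir199b, Mir199a-2 and Mir199a-1, and the 5p arm is the same in Mir199a-2 and Mir199a-1. The arms of miR-21a and miR-214 each occur in 1 microRNA precursor of the 2202 compared. Beyond the members, the seed of miR-21a-5p is shared by miR-21c and that of miR-214-3p by miR-761, and Mir21c and Mir761 had 0 reads in both libraries, which allows up to 0.421 CPM in replicate 2 and 0.564 CPM in replicate 1. Mir21b had 1 read in each library.

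The hairpins of the miR-199 genes show where the copies part, with the listed mature arms in capitals.
Mir199b: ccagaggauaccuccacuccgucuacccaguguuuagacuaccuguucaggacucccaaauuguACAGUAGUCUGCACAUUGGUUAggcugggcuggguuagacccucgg
Mir199a-2: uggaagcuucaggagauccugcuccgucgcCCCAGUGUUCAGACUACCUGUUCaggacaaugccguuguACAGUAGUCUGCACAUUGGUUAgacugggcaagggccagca
Mir199a-1: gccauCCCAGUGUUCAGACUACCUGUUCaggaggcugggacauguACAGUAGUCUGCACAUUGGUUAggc

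In the Mir199b hairpin, bases 26 to 48 correspond to miR-199a-5p and read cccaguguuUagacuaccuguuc. That stretch differs from miR-199a-5p by C10U, counted from 1 at the 5′ end with the base of miR-199a-5p first, keeps the same seed and occurs in 0 other precursors. A read of miR-199a-5p would need 1 more templated base at its 5′ end, or 5 more at its 3′ end, to point to 1 of the 2 miR-199a genes. A read of the shared 3p arm would need 2 more bases at its 3′ end to point to Mir199a-2. With 4 more, no precursor other than Mir199b holds the read, but only because the annotated hairpin of Mir199a-1 ends before that base. No differing base between Mir199b and Mir199a-1 was therefore seen on that side, and no 3′ addition within its hairpin sets Mir199a-1 apart. Reads that mapped to several places sit in no gene row of the deposited tables. Replicate 2 had 14706415 reads in all, 25.3% of them of this kind, and replicate 1 had 11877442, with 28.0% of this kind, and how many of them belong to miR-199 is not known. The counts of Mir199b, Mir199a-2 and Mir199a-1 are therefore uncertain and may be too low, and the sources used here do not state the mapping rule that set them.

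**Figure D1:**
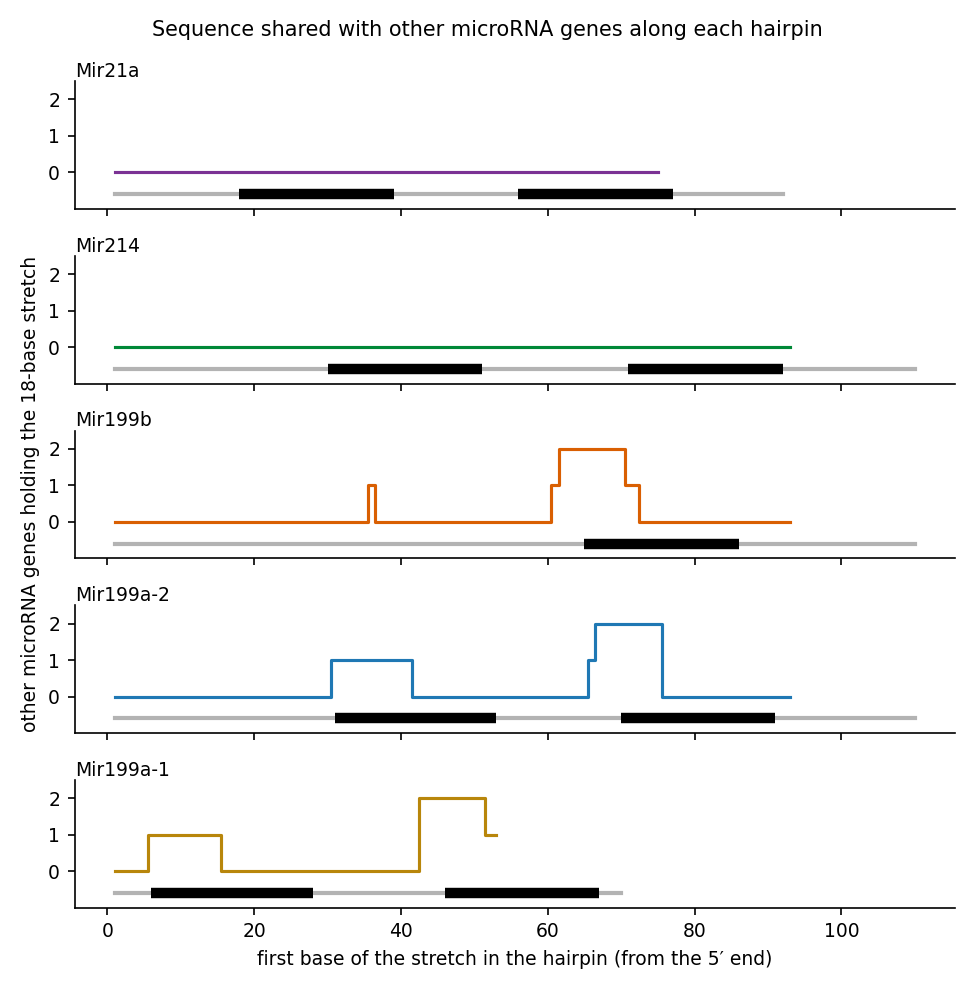
Number of other microRNA genes that hold each 18-base stretch (y axis) by the position of its first base in the hairpin (x axis), with the hairpin in grey and the listed mature arms in black below. Mir21a and Mir214 stay at 0 throughout, while the 3 miR-199 genes reach 2 over the shared 3p arm, and Mir199a-2 and Mir199a-1 reach 1 over their 5p arm.

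Counted in 18-base stretches of the hairpin, 0 of 75 in Mir21a and 0 of 93 in Mir214 occurred in another microRNA gene. Sharing reached 13 of 93 stretches (14.0%) in Mir199b, 21 of 93 (22.6%) in Mir199a-2 and 21 of 53 (39.6%) in Mir199a-1. Every shared stretch was shared among these 3 genes alone.

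On mm10, Mir21a lies on the minus strand of chromosome 11 from 86584067 to 86584158, where it overlaps an exon of 1 of 8 annotated transcripts of Vmp1, a gene of autophagy, in the same orientation. Mir199a-2 (162217814 to 162217923) and Mir214 (162223368 to 162223477) lie 5444 bases apart on the plus strand of chromosome 1. Exons of 5 of the 6 annotated Dnm3os transcripts overlap Mir199a-2 and exons of 3 overlap Mir214, and both genes lie within introns of Dnm3 on the other strand. Mir199b on chromosome 2 (32318460 to 32318569, plus strand) lies opposite introns of Dnm1. Mir199a-1 on chromosome 9 (21496495 to 21496564, minus strand) lies opposite introns of Dnm2.

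All 5 genes were detected, with Mir21a highest and Mir199a-1 lowest in both libraries, at a mean fold of 2291 between them, or 1758 when 1 CPM was added to each level. Levels are counts per 1000000 (CPM) of the 7128703 sense reads of replicate 2 and the 5317669 of replicate 1, with exact Clopper-Pearson 95% intervals that cover counting error only. Since each read is 1 whole small RNA, levels of different genes are compared without a correction for length. How evenly different small RNAs are captured as reads was not measured. Neither the intervals nor the spread between libraries covers such a difference, so ranks and folds between genes are those of counted reads. Together the members held 13239 CPM in replicate 2 and 10898 CPM in replicate 1, or 1.21% ± 0.166 of the reads (SD, n = 2).

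Mir21a, whose product is known to repress Pdcd4 and Spry1, had 60075 reads in replicate 2 and 36693 in replicate 1. That equals 8427 CPM (8360.2 to 8494.6) in replicate 2 and 6900.2 CPM (6830.0 to 6970.9) in replicate 1, a mean of 7664 ± 1080 CPM (SD, n = 2). It ranked 24th by mean level among 710 genes with a read, 23rd in replicate 2 and 24th in replicate 1. Mir98 of the let-7 family (8463 ± 92.5 CPM) and Mir93 (9574 ± 266 CPM) came next above it, and Mir106b (6105 ± 527 CPM) and Mir130b (6054 ± 426 CPM) next below. On the log2 scale the pooled replicate SD of the 50 genes nearest to Mir21a in level was 0.12.

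Mir214, the downstream gene of the Dnm3os transcript, had 30316 reads in replicate 2 and 18155 in replicate 1. Its level was 4253 CPM (4205.0 to 4301) in replicate 2 and 3414 CPM (3365 to 3464) in replicate 1, a mean of 3833 ± 593 CPM (SD, n = 2). It ranked 39th, between Mir423 (3834 ± 125 CPM) and Mir296 of the imprinted Gnas locus (3745 ± 63.2 CPM), with Mir22 (3942 ± 234 CPM) and Mirlet7b (3587 ± 536 CPM) beyond them. These 5 genes lay closer together than the replicate SDs of Mir214 and Mirlet7b.

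Mir199b, opposite Dnm1, had 3495 reads in replicate 2 and 2815 in replicate 1. Its level was 490.3 CPM (474 to 507) in replicate 2 and 529 CPM (509.996 to 549) in replicate 1, a mean of 509.8 ± 27.6 CPM (SD, n = 2) and rank 101. Mir199b was the only member whose level was lower in replicate 2. Its neighbours in level were Mir374b (539.6 ± 95.1 CPM) and Mir195a (573 ± 16.5 CPM) above and Mir148a (503 ± 55.2 CPM) and Mir34c (484 ± 41.5 CPM) below.

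Mir199a-2, the upstream gene of the Dnm3os transcript, had 464 reads in replicate 2 and 275 in replicate 1. Its level was 65.1 CPM (59.3 to 71.3) in replicate 2 and 51.7 CPM (45.8 to 58.2) in replicate 1, a mean of 58.4 ± 9.46 CPM (SD, n = 2) and rank 198. Here too the neighbours lay within the spread: Mir3102 (60.0 ± 20.2 CPM), Mir3074-1 (58.4 ± 3.09 CPM), Mir7-1 (58.3 ± 1.87 CPM) and Mir301b (58.2 ± 0.952 CPM).

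Mir199a-1, opposite Dnm2, had 28 reads in replicate 2 and 15 in replicate 1. Its level was 3.93 CPM (2.61 to 5.68) in replicate 2 and 2.82 CPM (1.58 to 4.65) in replicate 1, a mean of 3.37 ± 0.783 CPM (SD, n = 2) and rank 328. The counting intervals of the libraries overlapped. At this depth Mir5618 (3.42 ± 1.11 CPM), Mir194-1 (3.40 ± 1.35 CPM), Mir6540 (3.35 ± 1.37 CPM) and Mir219a-2 (3.26 ± 1.15 CPM) could not be told from it.

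**Figure D2:**
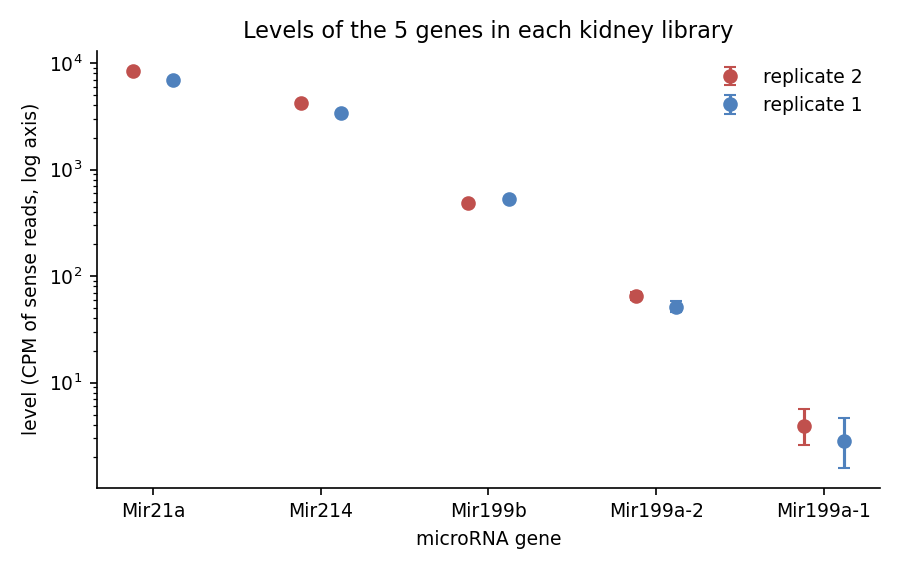
Level of each gene (y axis, CPM of sense reads, log axis) in replicate 2 and replicate 1, with exact 95% intervals for counting error, most of them smaller than the points. The genes keep 1 order in both libraries, Mir21a, Mir214, Mir199b, Mir199a-2 and Mir199a-1, and only Mir199b lies lower in replicate 2.

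**Figure D3:**
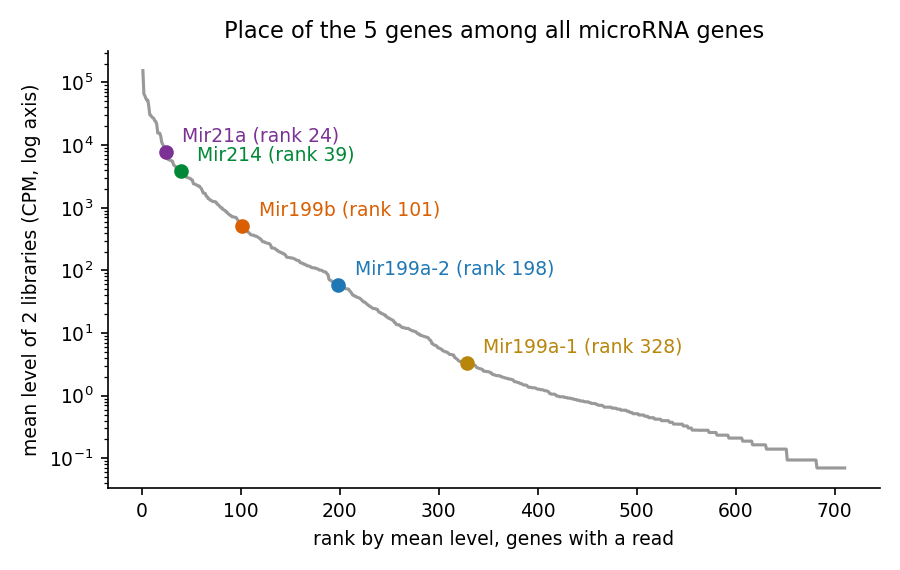
Mean level of 2 libraries (y axis, CPM, log axis) against rank for the 710 microRNA genes with a read (grey line), with the 5 genes marked. Mir21a and Mir214 stand at ranks 24 and 39, and Mir199b, Mir199a-2 and Mir199a-1 at ranks 101, 198 and 328.

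Reads on the wrong strand were nearly absent at these loci, although the dynamin genes run opposite to 4 of the members. Mir214 had 1 opposite-strand read in each library, Mir21a had 0 in replicate 2 and 1 in replicate 1, and the 3 miR-199 genes had 0 in both. Over all gene rows the opposite strand held 2.24% of the reads in replicate 2 and 2.14% in replicate 1.

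The copies were next compared with each other and with Mir21a. The fold between a pair was taken in each library and set against the replicate spread, the 95% limit of a fold between 2 genes of those levels, from the pooled replicate SD of the 50 genes nearest to each in level. The smallest p that an exact sign-flip test allows with 2 libraries is 0.5, so these folds are a description. All 10 pairwise folds exceeded their replicate spread, which ranged from 1.17-fold for Mir21a over Mir214 to 1.82-fold for Mir199a-2 over Mir199a-1. Each fold that involves a miR-199 gene is uncertain because of the shared arms.

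Mir21a stood 1.98-fold (1.95 to 2.01) above Mir214 in replicate 2 and 2.02-fold (1.99 to 2.06) in replicate 1. Set against the 4 dynamin-hosted genes summed, it stood 1.75-fold (1.73 to 1.77) above them in replicate 2 and 1.73-fold (1.70 to 1.76) in replicate 1. Within each of these comparisons the intervals of the libraries overlapped. The sum itself was 4812 CPM in replicate 2 and 3998 CPM in replicate 1, and Mir214 supplied 88.4% of it in replicate 2 and 85.4% in replicate 1.

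The 2 microRNA genes of the Dnm3os transcript differed widely in counted reads. Both listed arms of Mir199a-2 also lie in other precursors, whereas those of Mir214 do not. The part of reads lost to multi-mapping in this gap was not tested. Mir214 was 65.3-fold (59.6 to 71.8) above Mir199a-2 in replicate 2 and 66.0-fold (58.6 to 74.6) in replicate 1. The fold thus moved by 0.01 (SD, log2 scale) between libraries, as both genes were higher in replicate 2. The counting error of the log2 ratio of Mir199a-2 alone was 0.11, so the counts cannot resolve agreement this close. Of the reads counted for the miR-199 genes, Mir199b held 87.7% in replicate 2 and 90.7% in replicate 1. Mir199a-2 held 11.6% in replicate 2 and 8.86% in replicate 1, and Mir199a-1 0.702% in replicate 2 and 0.483% in replicate 1. The 5p stretch of Mir199b occurs in 0 other precursors, whereas both listed arms of Mir199a-2 and Mir199a-1 lie in other precursors. The copies may thus not be equally countable, and the part of this in their shares and folds was not tested. Mir199a-2 exceeded Mir199a-1 16.6-fold (11.3 to 25.2) in replicate 2 and 18.3-fold (10.9 to 33.2) in replicate 1. Both encode the same arms, but 2 more 3′ bases set the 3p arm of Mir199a-2 apart, and none within its hairpin do so for Mir199a-1. This fold is therefore one of counted reads and need not be that of the output of the genes.

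Of the 4 folds that involve Mir199b, 3 differed between the libraries by more than counting error. Mir199b stood 7.53-fold (6.84 to 8.32) above Mir199a-2 in replicate 2 and 10.2-fold (9.04 to 11.6) in replicate 1. Mir214 stood 8.67-fold (8.38 to 8.99) above Mir199b in replicate 2 and 6.45-fold (6.20 to 6.71) in replicate 1. Mir21a stood 17.2-fold (16.6 to 17.8) above Mir199b in replicate 2 and 13.0-fold (12.5 to 13.5) in replicate 1. In these 3 comparisons the counting intervals of the libraries did not overlap, unlike in those of Mir21a, Mir214 and Mir199a-2 with each other. The intervals did overlap for Mir199b over Mir199a-1, at 125-fold (86.2 to 188) in replicate 2 and 188-fold (114 to 336) in replicate 1.

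Replicate 2 was then compared with replicate 1 after TMM scaling, a method that aligns the bulk of genes, by a two-sided exact binomial test. P-values were adjusted by Benjamini-Hochberg across 455 genes of at least 10 reads summed. The test counts reads only and compares these libraries, not conditions. It called 153 genes, or 33.6%, of which 72 (15.8%) were higher and 81 (17.8%) lower in replicate 2. All 5 members passed the read filter and 3 were called, 2 higher and 1 lower. Calls were common among abundant genes, at 63.5% of the 181 genes that averaged 100 CPM or more. Library totals would shift every log2 ratio by 0.14, and with them 152 genes were higher and 41 lower in replicate 2.

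Mir21a was higher in replicate 2 by 0.15 on the log2 scale, with 0.01 as its counting error (exact binomial, adjusted p = 2.0e-51), and Mir214 by 0.17 with an error of 0.01 (exact binomial, adjusted p = 5.8e-37). Mir199b was lower, at -0.25 on that scale and an error of 0.04 (exact binomial, adjusted p = 3.3e-11). Mir199a-2 had a ratio of 0.19 with an error of 0.11 (exact binomial, adjusted p = 0.198) and Mir199a-1 a ratio of 0.33 with an error of 0.46 (exact binomial, adjusted p = 0.686). Of those 181 genes, 83 had a larger absolute log2 ratio than Mir21a, 56 a larger one than Mir214 and 33 a larger one than Mir199b. When the biological coefficient of variation between pools was set to 0.2 in the edgeR exact test, 3 genes passed (0.659%), none of the members was among them, and the smallest unadjusted p of a member was 0.539. Under library totals Mir199a-2 also passed (log2 ratio 0.33, exact binomial, adjusted p = 0.00756) and no member changed direction.

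**Figure D4:**
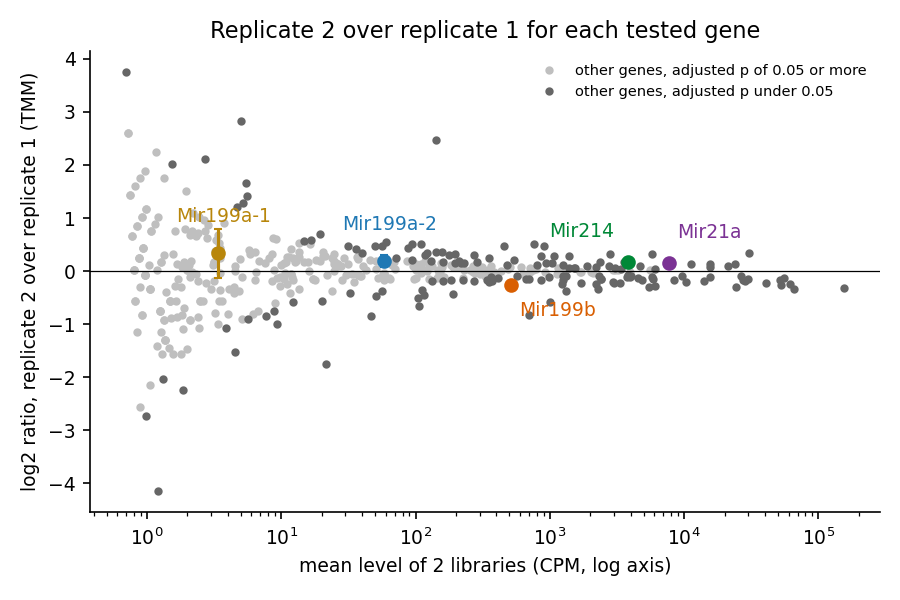
Log2 ratio of replicate 2 over replicate 1 after TMM scaling (y axis) against mean level (x axis, CPM, log axis) for 455 tested genes, with the 5 genes coloured and bars for their counting error. Mir21a at 0.15, Mir214 at 0.17 and Mir199b at -0.25 lie within the cloud of genes of like level, and the bar of Mir199a-1 crosses 0.

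Markers of smooth muscle and stroma were higher in replicate 2, as were Mir21a, Mir214 and 15.8% of all genes tested. With 1 pair of libraries, a shared direction does not show that genes vary together. The 2 listed genes, Mir143 and Mir145a, summed to 36005 CPM in replicate 2 and 25617 CPM in replicate 1 (log2 ratios 0.35 and 0.47). Erythroid Mir451a and Mir144 also were higher, with 422 CPM summed in replicate 2 and 303 CPM in replicate 1. Of the leukocyte markers Mir223, Mir155 and Mir150, which summed to 664 CPM in replicate 2 and 566 CPM in replicate 1, only Mir150 passed (log2 ratio 0.69), while under library totals 3 of 3 passed as higher, and Mir142 has no row. The other way went endothelial Mir126a and nephron epithelial Mir200b, Mir429 and Mir204. Mir126a had 51554 CPM in replicate 2 and 52632 CPM in replicate 1, at a log2 ratio of -0.17, which shrank to -0.03 under library totals. The nephron epithelial genes were 3 of 3 lower, at log2 ratios of -0.16, -0.10 and -0.16, beside 17.8% of all genes tested that were called lower. Of the abundant genes 63.5% were called in either direction. These 3 calls depend on the scaling. Under library totals Mir429 was higher in replicate 2 (log2 ratio 0.04), and Mir200b and Mir204 no longer passed, at -0.02 each (exact binomial, adjusted p = 0.251 for Mir200b and 0.861 for Mir204). Mir200c, Mir141 and Mir200a, epithelial genes outside that list, had log2 ratios of -0.13, -0.15 and -0.02. Under library totals their ratios were 0.02, -0.01 and 0.12. The part of these cell types in the ratios of the members was not tested, and in bulk tissue a larger share of cells and more RNA per cell cannot be told apart. The kidney and Hox-position markers Mir10a, Mir10b, Mir196b and Mir30a held 25.6% ± 1.66 of the reads (SD, n = 2), or 244382 CPM in replicate 2 and 267904 CPM in replicate 1. Mir10a, Mir10b and Mir196b were lower in replicate 2, at log2 ratios of -0.32, -0.25 and -0.31, and Mir30a was higher, at 0.13. Markers of other organs were present at low levels in part. Neuronal Mir124a-1 and Mir9-2 had at most 1 read, but Mir137 had 92.2 CPM in replicate 2 and 118 CPM in replicate 1. Skeletal muscle Mir1a-1 had 0 reads, Mir133b had 16 in each library, and Mir206 had 287 CPM in replicate 2 and 267 CPM in replicate 1. Mir124a-1, Mir9-2 and Mir1a-1 are copies of microRNAs made from several genes, and both arms of Mir9-2 also lie in Mir9-1 and Mir9-3. Reads of such copies can be lost to multi-mapping, so their low rows do not show a low level of these microRNAs. Liver Mir122 had 171 CPM in replicate 2 and 210.1 CPM in replicate 1.

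The members were last set beside other microRNA genes linked to fibrosis. Of 14 genes listed as pro-fibrotic, 13 reached 1 CPM in both libraries and 13 were tested. The calls were 3 of 13 (23.1%), beside 33.6% of all genes tested. They were the 3 members named above, and none of the 8 tested genes outside the members was called, Mir215 coming nearest (log2 ratio 0.51, exact binomial, adjusted p = 0.0501). Under library totals 8 of the 13 were higher and 1 lower, so these counts depend on the scaling. Mir21a and Mir214 were the 2 highest of the list, before Mir382 of the Dlk1-Dio3 locus (1142 ± 112 CPM) and, after Mir199b, Mir132 (364 ± 22.2 CPM), known from neurons and pericytes. The 9 genes outside the members summed to 0.225% ± 0.0182 of the reads (SD, n = 2), against 1.21% for the members. Their tested median log2 ratio was 0.01, beside 0.02 over all 455 genes.

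Of 21 genes listed as anti-fibrotic, 16 reached 1 CPM in both libraries. Among 17 tested, 4 were higher and 6 lower in replicate 2 (58.8% called, beside 33.6% of all genes tested and 63.5% of the abundant ones), and their median ratio was -0.02 on the log2 scale. Under library totals 8 were higher and 1 lower. Of the 6, Mir429 then was higher, Mir200c had a ratio of 0.02 that did not pass (exact binomial, adjusted p = 0.324), and Mir98 alone was still called lower. Mir429 (15538 ± 298 CPM) of the epithelial miR-200 family, which restrains epithelial-to-mesenchymal transition, and Mir98 were the highest by mean level. Mir429 lay above Mir21a in both libraries, whereas Mir98 (8398 CPM in replicate 2, 8528 CPM in replicate 1) lay below Mir21a in replicate 2 and above it in replicate 1. Mir200b (4848 ± 40.8 CPM) and Mir200c (4552 ± 34.3 CPM) lay between Mir21a and Mir214. Mir29c (64.2 ± 9.97 CPM) and Mir29a (49.8 ± 14.6 CPM), whose products repress collagen genes, lay near Mir199a-2. Mir29b-1 and Mir29b-2 had at most 9 reads, but they share their 3p arm, so reads can be lost to multi-mapping and their level is uncertain. Of the 21 genes, 6 have a listed arm that lies in another precursor, and Mir133a-1 and Mir133a-2, also copies, had 0 reads. With these rows as they stand, the list held 3.70% ± 0.0444 of the reads (SD, n = 2).

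**Figure D5:**
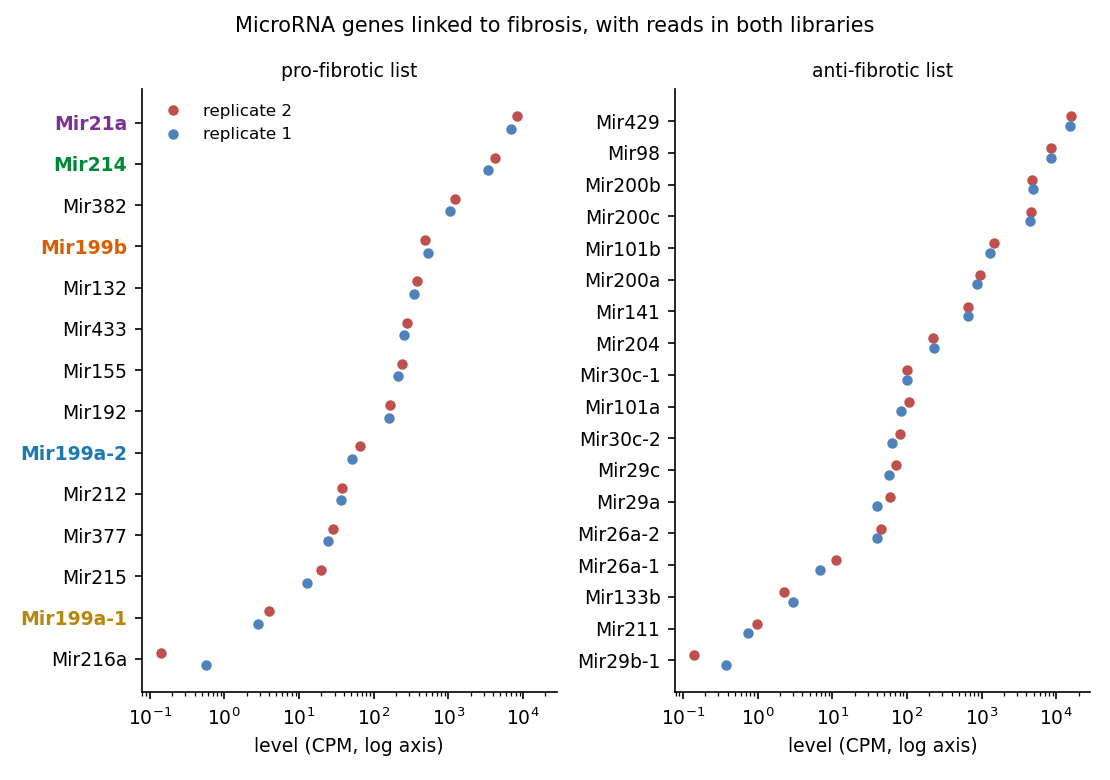
Level (x axis, CPM, log axis) in replicate 2 and replicate 1 of each gene of the pro-fibrotic list (left) and the anti-fibrotic list (right) that had reads in both libraries, with the members in bold. Mir21a and Mir214 top the left panel, and 4 genes of the right panel, Mir429, Mir98, Mir200b and Mir200c, lie at or above the level of Mir214.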

How the data were processed

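MicroRNA sequencing of 2 kidney libraries was used. The deposited tables hold raw read counts per microRNA gene on mm10 with annotation M4, per the text that the authors deposited with them. The aligner is, like the counter and the adapter trimming, not given in the sources used here. Sense-strand counts were used. Unmapped, multi-mapping, no-gene and ambiguous reads, together with opposite-strand reads, held 51.5% of all reads in replicate 2 and 55.2% in replicate 1, and stayed out of library sizes and tests.

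Symbols and positions came from GENCODE M21 by Ensembl identifier, which matched 1894 of 1973 rows and left 79 unmatched. Mature sequences and hairpins came from RefSeq. Sequence sharing was searched among 2202 microRNA precursors and not in the whole genome.

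Libraries were compared by an exact binomial test (scipy 1.17.1) with TMM factors of 1.05 for replicate 2 and 0.952 for replicate 1 (edgeR 4.0.16), over genes of at least 10 reads summed and at an adjusted p threshold of 0.05. With 1 library a side there are no residual degrees of freedom, which the quasi-likelihood test of edgeR needs, so it was not run. The alternatives were the edgeR exact test, DESeq2 1.42.0 size factors, library totals, other read filters, either-strand counts and an added pseudocount. Library totals for the gene lists were added after seeing the data.

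Intervals cover only counting error, and without molecular identifiers reads are not independent molecules. The members and lists were chosen with earlier results of these data known. Named genes are the members, the 2 nearest genes above and below each in mean CPM, and the 2 highest of each list. Mir200a, Mir200b, Mir200c, Mir141, Mir29a, Mir29c, Mir29b-1, Mir29b-2 and Mir215 were named beyond that rule after their values were seen, and marker genes were all named.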

Additional observations from a re-analysis of the deposited data

How the results depend on the processing

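The order of the 5 genes and the directions of their ratios and folds held under the alternatives tried, while the balance of all calls did not, with 72 genes higher and 81 lower after TMM scaling and 152 higher and 41 lower under library totals. Of 130 alternative values on the 5 genes and the count of calls, 112 counted as unchanged, each by its own criterion, and 0 reversed. That count overstates stability, because part of it was fixed in advance. A value from 1 library alone always lies within the SD of the 2 libraries. Dropping genes of low counts cannot change these ranks, and the values for shared stretches depend on no library. Among other list genes that were called after TMM scaling, library totals turned the log2 ratios of Mir429 to 0.0391 and Mir200c to 0.0154. The fold of Mir214 over Mir199a-2 became 64.6 with log2(CPM + 1), that of Mir21a over Mir199a-1 1758, that of Mir214 over Mir199a-1 878 and that of Mir199a-2 over Mir199a-1 13.6, since a pseudocount lowers folds over a low gene. The edgeR exact test passed 3 genes with a biological coefficient of variation of 0.2 and 3 with a trended one. The binomial test passed 153. Mir21a, Mir214 and Mir199b passed in neither edgeR setting. The value of 0.2 was assumed, not measured. With 1 library a side, the trend can come only from the libraries under comparison. The difference under test then enters the variation it is judged against, which favours few calls. Neither setting can therefore decide whether the binomial calls exceed the variation between pools. Scaling to all reads in the tables lowered every level, to 3587 CPM for Mir21a and 1.58 CPM for Mir199a-1, since the total then includes reads outside gene rows. Mir199a-1, with 28 reads in replicate 2 and 15 in replicate 1, was limited most by depth. No paired analysis was possible because the series holds 1 group.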

Other observations

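By their listed arms, the miR-199 genes belong to a small class. Of 916 gene rows with a mature sequence in the RefSeq table, 34 had every listed arm identical to an arm of another gene, and 8 of these (23.5%) reached 1 CPM in both libraries. Mir199b was the highest of the 8, at 509.8 CPM, and the median of the 8 was 33.6 CPM. Of 829 genes with no such arm, Mir21a and Mir214 among them, 303 (36.6%) reached 1 CPM in both libraries, with a median of 85.8 CPM. Of 53 genes with some but not all listed arms identical to another gene's, 41 (77.4%) did so, with a median of 42.6 CPM, so detection did not follow the sharing of arms in 1 direction. Mir199b has 1 listed arm in that table, so the class of Mir199b rests on its 3p arm alone. Its unlisted 5p stretch occurs in 0 other precursors. If that stretch were listed as an arm, Mir199b would fall among the genes with some but not all arms identical.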
